A study of Mus musculus with 8 samples.

Results

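The 10 genes described here belong to antigen presentation by MHC class II and to costimulation of T cells: H2-Aa, H2-Ab1 and H2-Eb1 (the peptide-binding class II chains), Cd74 (the invariant chain), H2-DMa and H2-DMb1 (the peptide editor), Ciita (the transactivator), Cd80 and Cd86 (costimulatory ligands) and Cd40 (a costimulatory receptor). They were listed by name and not by a cutoff on their values, though earlier results of these data were known. A probe was assigned to a gene when its RefSeq transcript belonged to that gene, and each gene is represented by its brightest probe among those that exceeded their background clearly on 4 or more of the 8 arrays. All 10 genes had such a probe, with 12 retained probes in total, out of 34038 retained probes and 15156 named genes on the array.

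Gene expression was measured in the ventricles of male C57BL\6 mice 24 hours after surgery. In 4 mice (MI) the anterior interventricular artery was permanently tied off, and the 4 sham-operated mice (sham) underwent the surgery but kept an open artery. Each mouse had 1 array, on which RNA labeled in 1 color was hybridized to mouse SurePrint G3 probes. All 8 arrays were printed on the same slide, in 2 rows, with mice 1 and 2 of each group in row 1 and mice 3 and 4 in row 2, so that the row was balanced between groups.

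Class II molecules are made by dendritic cells, B cells and macrophages, and by other cells under interferon gamma. The alpha and beta chains assemble around the invariant chain, which guides them to endosomes. There the invariant chain is degraded, H2-DM exchanges its last fragment for a peptide, and the loaded molecule is shown at the surface to CD4+ T cells. Ciita does not bind DNA itself but switches on the class II, invariant chain and H2-DM genes through proteins already bound to their promoters. CD80 and CD86 deliver the second signal to T cells through CD28, and CD40 receives a signal back from activated T cells. In the heart, resident macrophages and dendritic cells carry class II molecules before any injury, and an infarct draws in neutrophils and monocytes within hours.

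Values are log2 signals after the arrays were put on the same scale with the RNA spiked into each sample. A gene passed the test when its limma p was under 0.05 after Benjamini-Hochberg adjustment across the 34038 probes. The share of spots well above background ranged from 58.6% to 66.4% per array. On this scale the median difference between MI and sham-operated mice over all probes was 0.12, and 1924 probes (5.65%) passed, 87.2% of them higher in MI mice. With each array scaled to its 75th percentile instead, the median was -0.02 and 5973 probes (17.5%) passed, 49.6% of them higher. Small differences of either sign therefore depend on the scale, and values on both scales are given for the 10 genes. The exact two-sided permutation test of 4 against 4 mice cannot give a p below 0.0286. The mice are separate animals, and their number limits the precision of every value. In RNA from whole tissue, fewer cells of a type and less RNA per cell cannot be told apart.

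At 24 hours, 1 of the 10 genes passed the test: Ciita, which was higher in MI mice. For comparison, 4.93% of all probes passed as higher. No member passed as lower, against 0.723% of all probes. The median difference of the 10 genes was 0.30, beside 0.12 for all probes (0.16 beside -0.02 with scaling to the 75th percentile). The MI and sham values of 3 genes did not overlap (Ciita, Cd80 and Cd74, all higher in MI mice), whereas 7.79% of all probes were higher without overlap. Ciita also exceeded a fold of 2, beside 3.95% of all probes that passed as higher with such a fold. With scaling to the 75th percentile, 2 of 10 passed, Ciita and Cd80, beside 8.7% of all probes that passed as higher.

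**Figure D1:**
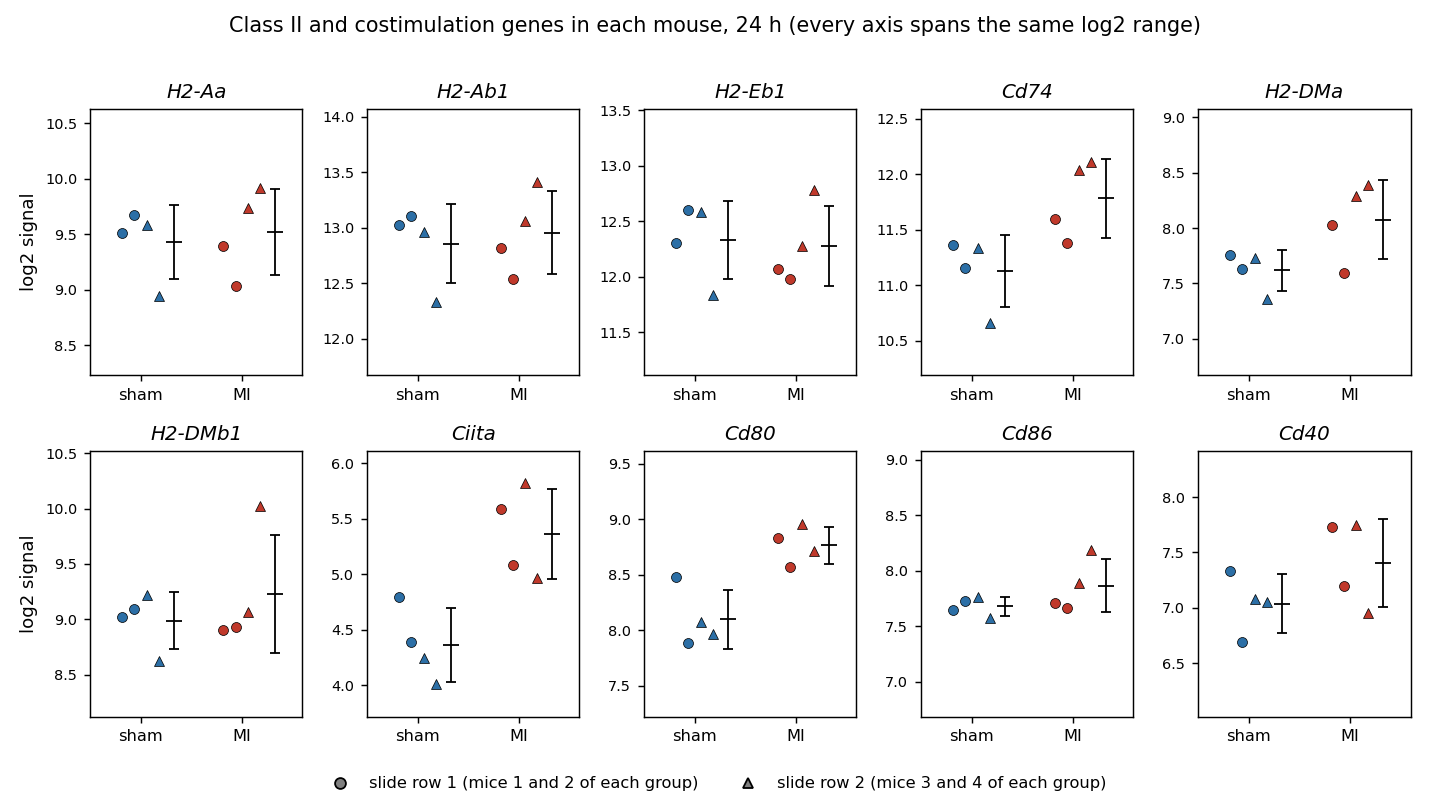
Log2 signal of the 10 genes in each of 4 sham-operated mice (blue) and 4 MI mice (red), with circles for slide row 1 and triangles for slide row 2; the cross bar and whiskers are the mean ± SD of each group, and every vertical axis spans the same log2 range. The class II chains H2-Aa, H2-Ab1 and H2-Eb1 overlapped between the groups, with sham mouse 4 lowest in each, whereas Ciita, Cd80 and Cd74 did not overlap.

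The chains that form the class II molecule did not pass the test. H2-Aa, the alpha chain of the I-A molecule, had log2 signals of 9.40, 9.04, 9.74 and 9.92 in MI mice and 9.51, 9.67, 9.59 and 8.94 in sham mice. The groups overlapped almost completely, and the lowest value was that of sham mouse 4. The difference, MI minus sham, was 0.09 on the log2 scale (95% confidence interval -0.45 to 0.64, limma adjusted p = 0.910), and -0.05 with scaling to the 75th percentile. H2-Ab1, the beta chain that pairs with it, had log2 signals of 12.81, 12.54, 13.06 and 13.41 in MI mice and 13.02, 13.11, 12.96 and 12.33 in sham mice. Its difference was 0.10 (-0.45 to 0.65, adjusted p = 0.903), its other probe gave 0.08, and scaling to the 75th percentile gave -0.039. The alpha and beta chains thus had the same order of mice at both ends, with MI mouse 4 highest and sham mouse 4 lowest.

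H2-Eb1, the beta chain of the I-E molecule, had log2 signals of 12.07, 11.98, 12.27 and 12.78 in MI mice and 12.30, 12.60, 12.58 and 11.84 in sham mice. Its difference was -0.05 (-0.60 to 0.49, adjusted p = 0.952), and -0.19 with scaling to the 75th percentile. The partner chain of the I-E molecule, H2-Ea, had no retained probe. With spike-in scaling the intervals of these 3 chains allow at most a change of 0.65 upward and 0.60 downward on the log2 scale, with scaling to the 75th percentile the interval of H2-Eb1 reached -0.75, and their signs changed with the scale, the slide row or the mouse left out.

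The slide rows gave opposite signs for these chains. In row 1 the difference was -0.38 for H2-Aa, -0.39 for H2-Ab1 and -0.43 for H2-Eb1. In row 2 it was 0.56, 0.59 and 0.32. Each row held 2 mice of a group, so the sign in a row rests on 4 arrays. Over all 10 genes, MI mouse 4 had the highest value for 7 and MI mouse 3 for 3, while sham mouse 4 had the lowest value for 8 and sham mouse 2 for 2. The mean of Cd74, H2-Aa, H2-Ab1 and H2-Eb1, centered over the 8 mice, was -0.07, -0.30, 0.24 and 0.52 in MI mice and 0.02, 0.10, 0.08 and -0.59 in sham mice. Within each group the class II signal thus varied between mice (SD 0.36 in MI and 0.33 in sham mice) by more than the difference of 0.20 between the groups. The part of the row in these values was not tested.

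The genes whose centered signals came closest to this class II profile over the 8 mice, among 14022 other genes well above background on all arrays, were Stbd1, Mcm6, Cd82, Slamf9 and Bace2. Their mean absolute difference from the profile was 0.0844, 0.0891, 0.105, 0.110 and 0.110 on the log2 scale. None of them passed the test between groups, and their differences lay between 0.00 for Cd82 and 0.31 for Mcm6. All values of a mouse share its array, so a shift of the array enters these likenesses.

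Class II promoters carry an X box, bound by the RFX complex, an adjoining X2 box, bound by CREB proteins, and a Y box, bound by NF-Y. RefSeq windows (GRCm38.p6, 250 bases before to 50 after the start) were at hand for 5 of the 10 genes: H2-Aa, H2-Eb1, H2-DMb1, H2-DMa and Cd80. The stretch from 110 to 21 bases before the start is printed for 3 class II genes, since it holds both boxes, and for Cd80, which is not a class II gene, for comparison. Capitals mark the X box (AG, any base, AAC, any 2 bases, ATG), the X2 box (TGACGTCA) and the Y box (TGATTGG), each searched on both strands, and no printed match overlaps another.
H2-Aa (chr17:34287844-34287933, minus strand): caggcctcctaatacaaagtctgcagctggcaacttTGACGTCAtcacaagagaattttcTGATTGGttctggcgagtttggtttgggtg
H2-Eb1 (chr17:34305757-34305846, plus strand): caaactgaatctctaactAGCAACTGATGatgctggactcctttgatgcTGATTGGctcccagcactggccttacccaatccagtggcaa
H2-DMb1 (chr17:34153081-34153170, plus strand): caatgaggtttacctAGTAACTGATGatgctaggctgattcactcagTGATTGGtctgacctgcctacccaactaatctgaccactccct
Cd80 (chr16:38458823-38458912, plus strand): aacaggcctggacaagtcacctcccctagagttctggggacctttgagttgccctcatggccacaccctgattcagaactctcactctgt

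The Y box letters began 50 bases before the start in H2-Aa, 61 in H2-Eb1 and 63 in H2-DMb1, in the same orientation. The X box letters began 31 bases before those of the Y box in H2-Eb1 and 32 bases before them in H2-DMb1. In H2-Aa the X box letters were not matched, and the X2 box letters began 24 bases before the Y box. None of the 3 sets of letters was found in the windows of H2-DMa or Cd80. Of all 32851 windows, 7.82% held the Y box letters, 0.895% the X box letters, 1.79% the X2 box letters and 0.0944% an X or X2 box followed by a Y box within 60 bases. The letters were chosen after the windows had been read, and a match is not evidence of binding. In the arrays, these 3 genes with a Y box differed by 0.09 (H2-Aa), -0.05 (H2-Eb1) and 0.24 (H2-DMb1) between groups, and none passed.

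Cd74, the invariant chain that travels with the class II chains, showed a larger difference than they did. Its log2 signals were 11.59, 11.38, 12.04 and 12.11 in MI mice and 11.36, 11.15, 11.34 and 10.66 in sham mice. The groups did not overlap, though the gap between MI mouse 2 and sham mouse 1 was narrow. The difference was 0.65 (95% confidence interval 0.12 to 1.19), or 1.57-fold, and the adjusted p of limma was 0.169, so Cd74 did not pass. The exact permutation p was 0.0286 (n = 4 per group). With scaling to the 75th percentile the difference was 0.51, the adjusted p was 0.0910 and the groups overlapped. Of the alternatives, normexp background correction brought Cd74 past the test, with a difference of 0.64 and an adjusted p of 0.0426, beside 4.62% of all probes that passed as higher under it. The difference was 0.23 within row 1 and 1.08 within row 2.

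The invariant chain was also set against the class II chains of the same mouse, a comparison that no scaling between arrays can alter. It was chosen after the values had been seen. Cd74 minus the mean of H2-Aa, H2-Ab1 and H2-Eb1 was 0.17, 0.19, 0.35 and 0.08 in MI mice and -0.25, -0.64, -0.37 and -0.38 in sham mice. Every MI value was above every sham value, and 0 itself has no meaning in a difference between probes. The difference between groups was 0.61 (95% confidence interval -0.09 to 1.31), with similar values of 0.63 within row 1 and 0.59 within row 2, and the exact permutation p was 0.0286 (n = 4 per group). In the limma fit of this ratio over all probes the adjusted p was 0.592, so it did not pass. That fit gave every member the same standard error of 0.36 for the difference between groups. The SD of the Cd74 ratio between mice was 0.11 in MI mice and 0.17 in sham mice.

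**Figure D2:**
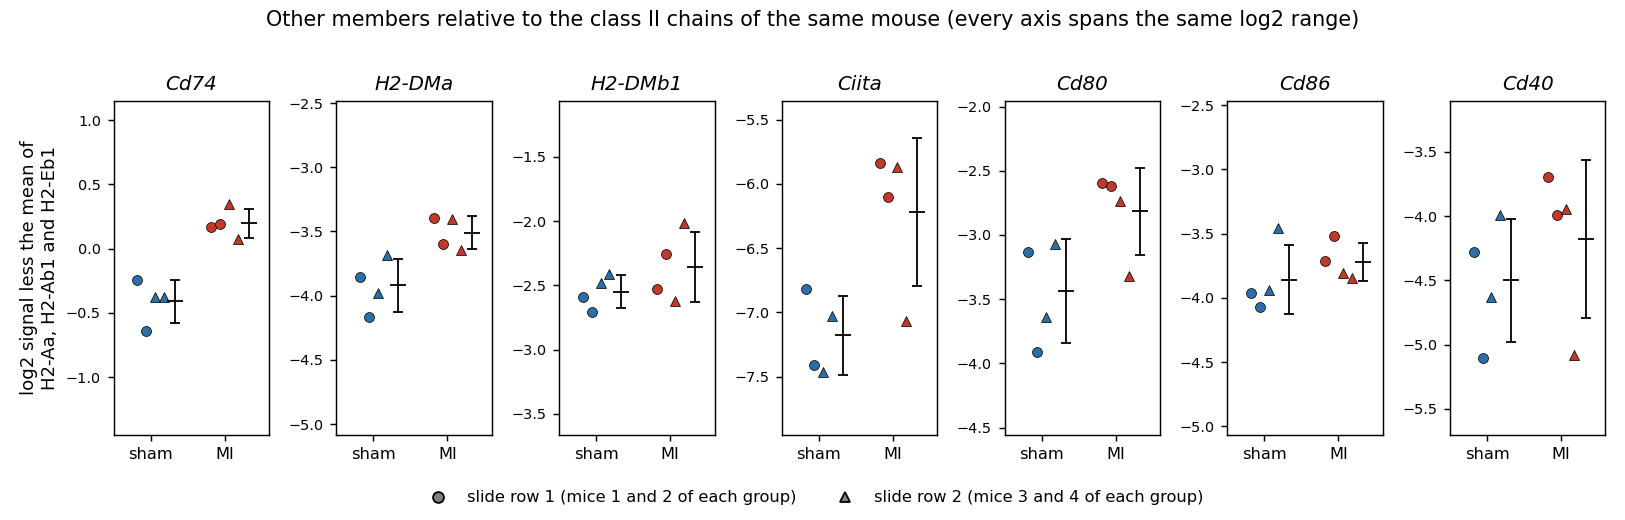
Log2 signal of 7 genes less the mean log2 signal of H2-Aa, H2-Ab1 and H2-Eb1 in the same mouse, for 4 sham-operated mice (blue) and 4 MI mice (red); circles and triangles are slide rows 1 and 2, cross bar and whiskers are the mean ± SD, and every vertical axis spans the same log2 range. The groups did not overlap for Cd74 and H2-DMa, and overlapped for H2-DMb1, Ciita, Cd80, Cd86 and Cd40.

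Relative to the class II chains, the mean of all 7 other genes was higher in MI mice. That sign was fixed by the choice of reference, since the chains had the lowest differences of all members. The median of all probes relative to the chains was also higher in MI mice, by 0.07. In 2 of the 7, Cd74 and H2-DMa, the groups did not overlap. Among all probes 3.96% were higher without overlap in this comparison. None of the 7 passed in limma with all 8 mice, beside 3.41% of all probes that passed as higher. Ciita came closest, with a difference of 0.96 and an adjusted p of 0.126, and its groups overlapped through MI mouse 4. Without that mouse Ciita passed, with a difference of 1.24 and an adjusted p of 0.0118. The difference was 0.095 with additive constants, 0.091 after normexp correction and 0.54 in the values of the authors.

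The peptide editor did not pass. H2-DMa, its alpha chain, had log2 signals of 8.03, 7.59, 8.29 and 8.39 in MI mice and 7.76, 7.63, 7.73 and 7.36 in sham mice. MI mouse 2 lay among the sham-operated mice and the other 3 lay above them. The difference was 0.46 (-0.05 to 0.96, adjusted p = 0.349), or 0.32 with scaling to the 75th percentile, and relative to the class II chains it was 0.41 (exact permutation p = 0.0286, n = 4 per group, limma adjusted p = 0.878). H2-DMb1, the beta chain, had log2 signals of 8.90, 8.93, 9.07 and 10.02 in MI mice and 9.02, 9.09, 9.22 and 8.63 in sham mice. Its difference of 0.24 (-0.34 to 0.82, adjusted p = 0.732) rested on MI mouse 4, without which it was -0.023, and it was 0.10 with scaling to the 75th percentile.

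Ciita, the transactivator on which class II transcription depends, was the member that passed. Its log2 signals were 5.59, 5.08, 5.82 and 4.97 in MI mice and 4.80, 4.39, 4.25 and 4.01 in sham mice. The groups did not overlap. The difference was 1.01 (95% confidence interval 0.45 to 1.56), or 2.01-fold, with an adjusted p of 0.0302 in limma, and 0.89 above the median of all probes. Scaling to the 75th percentile gave 0.87 (adjusted p = 0.0227). The probe was dim, with processed signals of 36.3 to 50.7 in MI mice and 14.1 to 33.3 in sham mice, and it was not well above background in 1 of the 4 sham-operated mice.

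The call for Ciita was lost in several other fits. The difference was 0.13 both in the fit with additive constants (adjusted p = 0.400) and after normexp background correction (adjusted p = 0.999), and it was 0.64 in the normalized values of the authors (adjusted p = 0.114). It was likewise lost without MI mouse 1 or 3 or sham mouse 2, 3 or 4 (adjusted p between 0.0593 and 0.112) and without moderation of the variances (adjusted p = 0.152). In every one of these fits the difference kept its sign. Within row 1 it was 0.74 and within row 2 it was 1.27. MI mice 1, 2 and 3 had the same order for Ciita and for the class II mean, and sham mouse 4 was lowest for both, but MI mouse 4, the highest for the class II chains, had the lowest Ciita value among the MI mice.

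**Figure D3:**
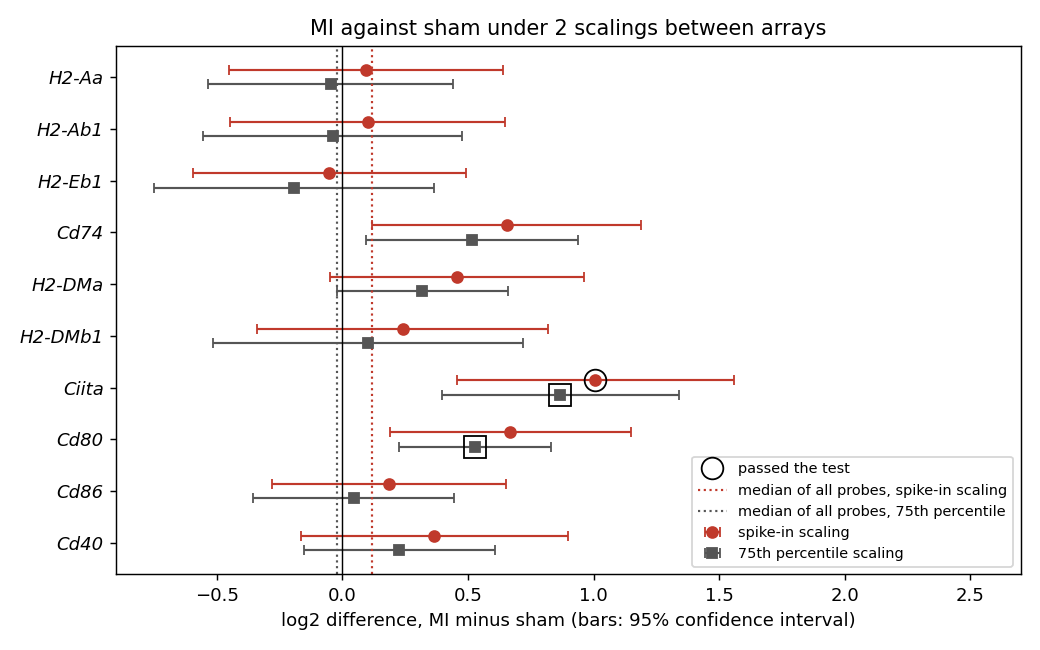
Difference in log2 signal between MI and sham-operated mice for the 10 genes, with 95% confidence intervals from limma, under spike-in scaling (circles) and scaling to the 75th percentile (squares); black outlines mark genes that passed the test and dotted lines the median of all probes under each scaling. The intervals of the class II chains spanned the median of all probes, Ciita passed under both scalings and Cd80 under the second.

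Of the costimulatory ligands, Cd80 was nearer the threshold than Cd86. Cd80, a ligand of CD28 and CTLA-4 that is induced on activated antigen-presenting cells, had log2 signals of 8.83, 8.57, 8.96 and 8.72 in MI mice and 8.48, 7.88, 8.07 and 7.97 in sham mice. The groups did not overlap, and sham mouse 1 came closest to the MI mice. The difference was 0.67 (95% confidence interval 0.19 to 1.15), or 1.59-fold, with an adjusted p of 0.110, so Cd80 did not pass on the spike-in scale. With scaling to the 75th percentile it was 0.53 and passed (adjusted p = 0.0269), and it also passed in significance analysis of microarrays (q = 0.0263, beside 7.7% of all probes that passed as higher).

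A dimmer probe of Cd80 was well above background in all 4 MI mice and in 0 of 4 sham-operated mice. Its log2 signals were 5.30, 5.68, 5.76 and 5.58 in MI mice and 2.87, 3.15, 3.64 and 3.06 in sham mice. The measured signal was 5.29-fold higher in MI mice. This fold is neither a lower bound nor a firm size, since none of the sham signals was called well above background. This probe was retained only through its MI arrays, so that a difference was built into its selection and no test is given. The fit with additive constants gave 0.24 for it, and after normexp correction it was 0.51. Both probes are assigned to the same RefSeq transcript, and their differences of 0.67 and 2.40 do not match.

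Cd86, the ligand that antigen-presenting cells carry more steadily, had log2 signals of 7.71, 7.67, 7.89 and 8.19 in MI mice and 7.65, 7.73, 7.77 and 7.58 in sham mice. Its difference was 0.18 (-0.28 to 0.65, adjusted p = 0.747), or 0.045 with scaling to the 75th percentile. The sham values spanned a narrow range (SD 0.08), inside which MI mice 1 and 2 also lay. Cd40, the receptor through which helper T cells license antigen-presenting cells, had log2 signals of 7.73, 7.19, 7.74 and 6.96 in MI mice and 7.34, 6.69, 7.08 and 7.05 in sham mice. Its difference was 0.37 (-0.17 to 0.90, adjusted p = 0.515), or 0.23 with scaling to the 75th percentile, and MI mouse 4, the highest for the class II chains, was the lowest MI mouse for Cd40.

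The mean of Cd80, Cd86 and Cd40, centered over the mice, was 0.41 higher in MI than in sham mice, and that of Cd74 and the class II chains 0.20 higher. Scaling to the 75th percentile gave 0.27 and 0.059. The costimulation mean less the class II mean was 0.35, 0.30, 0.14 and -0.38 in MI mice and 0.00, -0.47, -0.25 and 0.31 in sham mice. The difference between groups of 0.21 was smaller than the SD of 0.33 in MI and 0.34 in sham mice.

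Leukocyte genes had higher signals in MI mice. Ptprc, which encodes CD45 of all leukocytes, had log2 signals of 7.67, 8.15, 8.15 and 8.34 in MI mice and 7.07, 6.87, 7.07 and 6.59 in sham mice. Its difference of 1.18, or 2.26-fold, passed the test (limma adjusted p = 0.00503). To ask whether the class II and costimulation genes kept pace with it, each gene was taken relative to Ptprc in the same mouse, and 10 genes were tested so.

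Relative to Ptprc the mean of all 10 genes was lower in MI mice, and in 7 the groups were separate (each with an exact permutation p of 0.0286, n = 4 per group, the smallest the test can give). The log2 ratio of H2-Aa to Ptprc was 1.72, 0.89, 1.59 and 1.57 in MI mice and 2.44, 2.80, 2.52 and 2.35 in sham mice. It was lower in MI mice by 2.12-fold for H2-Aa, 2.11-fold for H2-Ab1 and 2.35-fold for H2-Eb1. The ratio was lower by 1.44-fold for Cd74, 1.65-fold for H2-DMa, 1.92-fold for H2-DMb1 and 1.99-fold for Cd86. Ciita (-0.17), Cd80 (-0.51) and Cd40 (-0.81) overlapped between groups. Of all probes, 58.2% were lower relative to Ptprc without overlap, so that 7 of 10 genes is near that background. Without sham mouse 1 or sham mouse 2, 4 genes had an exact permutation p under 0.05, since Cd74, H2-DMa and H2-DMb1 then gave 0.0571 though their groups stayed separate.

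A macrophage gene gave another picture. Cd68, meant as this reference, had no probe assigned through RefSeq, and Csf1r, the receptor that maintains macrophages, was used after the data had been seen. Its brightest probe differed by -0.15 (limma adjusted p = 0.842) and its other retained probes by 0.28 and 0.48. Relative to the brightest probe, the mean of all 10 genes was higher in MI mice. The difference of that probe less the median of all probes was -0.27, so a typical probe was also higher relative to it. H2-Aa (0.24), H2-Ab1 (0.25) and H2-Eb1 (0.09) were higher by less than a typical probe. Groups did not overlap for 4 genes, higher by 0.80 for Cd74, 0.60 for H2-DMa, 1.15 for Ciita and 0.82 for Cd80. Each had an exact permutation p of 0.0286 (n = 4 per group), beside 12.1% of all probes that were higher without overlap. Without sham mouse 2 or 3, 2 genes had an exact permutation p under 0.05, since Ciita and Cd80 then gave 0.0571. With the mean of the 3 Csf1r probes 2 genes did not overlap, and the means of H2-Aa, H2-Ab1, H2-Eb1 and Cd86 turned lower.

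Genes that serve the same pathway were counted by function, from lists of 70 genes of which 60 had a retained probe. Of these, 8 passed as higher and 0 as lower, beside 4.93% and 0.723% of all probes, and the median difference was 0.25, beside 0.12 for all probes. With scaling to the 75th percentile 14 passed as higher and 4 as lower, beside 8.7% and 8.84% of all probes. The 8 genes were costimulatory ligands, components of CD40 signaling, Socs1 and Tap1. They include Pdcd1lg2, whose MI arrays alone met the detection filter.

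Of the other costimulatory ligands of antigen-presenting cells, 3 of 7 passed, all higher, and the median difference of the 7 was 0.70. Cd274, which encodes the inhibitory ligand PD-L1, had log2 signals of 8.18, 8.41, 8.84 and 8.09 in MI mice and 6.94, 6.47, 7.14 and 6.92 in sham mice, a difference of 1.52 or 2.86-fold (limma adjusted p = 0.000866). Pdcd1lg2, for the inhibitory ligand PD-L2, differed by 1.85, but its probe was well above background in only 1 of 4 sham-operated mice. Its 4 MI arrays alone met the detection filter, so a difference was favored by its selection and its p is not given. It did not pass in the values of the authors (adjusted p = 0.110), with additive constants (adjusted p = 0.213) or after normexp correction (adjusted p = 0.647). Tnfsf9, the ligand of 4-1BB, had log2 signals of 7.54, 7.55, 8.08 and 7.53 in MI mice and 6.02, 5.72, 6.96 and 5.99 in sham mice, or 2.84-fold higher (adjusted p = 0.00275). Vtcn1, Tnfsf4 and Cd70 had no retained probe, and Icosl, Cd276, Tnfsf18 and Cd48 did not pass, with differences between 0.03 and 0.70. Cd274 and Tnfsf9 passed where their counterparts Cd80 and Cd86 did not, but the difference between these genes was not tested.

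Of the genes of CD40 signaling, 3 of 9 passed as higher, and the median difference was 0.82. Scaling to the 75th percentile gave 6 of 9 as higher, Traf2, Nfkb1 and Nfkb2 among them, and the median was 0.68. The 3 that passed with spike-in scaling were Relb, Map3k14 and Traf1. Relb, a subunit of the noncanonical NF-kB dimer, differed by 1.19 (limma adjusted p = 0.00511). Map3k14, the kinase NIK that drives the processing of that dimer, differed by 1.00 (adjusted p = 0.0193). Traf1, an adaptor at the receptor, differed by 0.94 (adjusted p = 0.0181). The mean of all 9 was higher in MI mice, also Nfkb2 with 0.93 (adjusted p = 0.0611) and Nfkb1 with 0.82 (adjusted p = 0.137), whose other probe gave 0.25. The other probe of Map3k14 gave 0.61 and did not pass (adjusted p = 0.196), and Map3k14 no longer passed without MI mouse 1 or 3 or sham mouse 2 or 4 (adjusted p between 0.0635 and 0.0726). These genes also serve other receptors of the TNF family.

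The proteins that bind class II promoters were encoded by genes of which 0 of 6 passed: Rfxap, Rfxank, Nfya, Nfyb, Nfyc and Creb1, with differences from -0.81 for Rfxank to 0.36 for Creb1, whose other probe gave -0.22. Rfx5 had no retained probe. Of the 10 measured accessory genes, which encode the other class II chains, the invariant chain proteases and the ubiquitin ligases of class II, 0 passed. The nearest was Ifi30, the thiol reductase that unfolds antigens, with 0.72 (limma adjusted p = 0.101) and groups that did not overlap. Ctss, the protease that trims the invariant chain, differed by 0.43 (adjusted p = 0.355). Rfxank passed as lower with scaling to the 75th percentile (-0.95, adjusted p = 0.0203), and there Ctsl (-0.46, adjusted p = 0.0194) and Marchf8 (-0.52, adjusted p = 0.0172) did as well, while Ifi30 passed as higher (0.58, adjusted p = 0.0257). After normexp correction Rfxank also passed as lower (-0.74, adjusted p = 0.0115) and Ifi30 as higher (0.63, adjusted p = 0.0450).

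Of 8 measured genes of the interferon gamma axis, 1 passed: Socs1, the feedback inhibitor of its receptor, with log2 signals of 7.94, 8.18, 8.42 and 8.31 in MI mice and 6.45, 6.41, 6.96 and 6.59 in sham mice, a difference of 1.61 or 3.05-fold (limma adjusted p = 0.000246). Irf1, a factor that acts on Ciita and on class I genes, differed by 0.92 without overlap but did not pass (adjusted p = 0.0732), whereas it passed with scaling to the 75th percentile (adjusted p = 0.0271), in the values of the authors (0.0415) and after normexp correction (0.00167). Ifng itself had no retained probe. Of 14 class I presentation genes 1 passed, Tap1, a subunit of the peptide transporter, with 1.16 (adjusted p = 0.0215), which was lost without MI mouse 1 or 3 or sham mouse 2 or 4 (adjusted p between 0.0542 and 0.0713). The call for Tap1 was also lost with additive constants (0.33, adjusted p = 0.147) and after normexp correction (0.56, adjusted p = 0.0950). Without a detection filter (adjusted p = 0.107) or moderation of the variances (adjusted p = 0.174) it was lost too. Tap1 passed with scaling to the 75th percentile (adjusted p = 0.00863) and in the values of the authors (adjusted p = 0.0111). B2m, the common light chain, differed by 0.34 (adjusted p = 0.488). Of 6 measured T cell receptors for these ligands 0 passed with spike-in scaling. Cd28, the receptor of CD80 and CD86, passed as lower with scaling to the 75th percentile (-0.49, adjusted p = 0.0294), beside 8.84% of all probes. It did not pass with spike-in scaling (-0.35, adjusted p = 0.563). Tnfrsf9, the receptor 4-1BB, differed by 0.28 (adjusted p = 0.616) by its brightest probe and by 1.34 (adjusted p = 0.00363) by its other probe, and Ctla4 and Cd40lg had no retained probe.

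**Figure D4:**
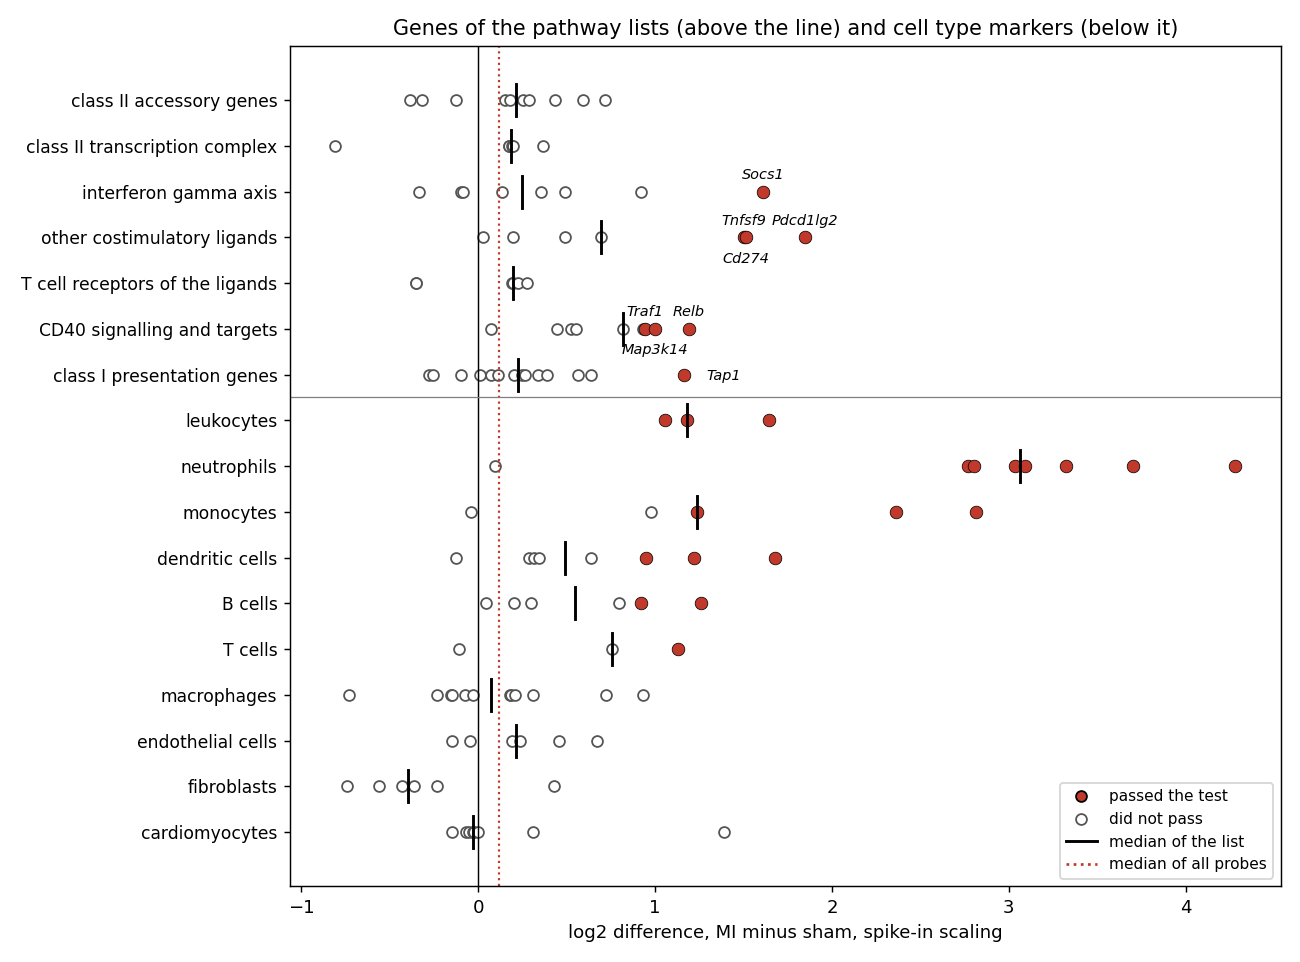
Difference in log2 signal, MI minus sham, of each measured gene in the pathway lists (above the grey line) and in marker lists of cell types (below it), from limma with spike-in scaling; filled circles passed the test, open circles did not, black bars are list medians and the dotted line is the median of all probes. Neutrophil and leukocyte markers lay far to the right, macrophage markers spread around the median of all probes.

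Marker genes of the cells that carry these molecules were counted beside them. All 3 leukocyte markers passed as higher (Coro1a by 1.65, Ptprc by 1.18 and Laptm5 by 1.06), and the log2 of their summed signal was 12.66 to 13.06 in MI mice and 11.07 to 11.54 in sham mice. Of 8 dendritic cell markers 3 passed as higher: Itgax (1.68), Ccr7 (1.22) and Cd209a (0.95), while Flt3 (0.29), Zbtb46 (0.32) and Clec9a (-0.13) did not pass, and Xcr1 had no retained probe. The log2 of the summed dendritic signal was 10.77 to 11.25 in MI mice and 10.10 to 10.53 in sham mice. With scaling to the 75th percentile Cd209a did not pass (adjusted p = 0.0803). Itgax is also carried by monocytes and macrophages.

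Of the B cell markers, Ms4a1 passed as higher (1.26), but its probe was dim and it did not pass in the values of the authors (limma adjusted p = 0.957). Cr2 differed by 0.05, and Pax5 had no retained probe. Of 12 macrophage markers 0 passed, with a median difference of 0.08 and a range from -0.73 for Cx3cr1 to 0.93 for Cd163, and the log2 of their summed signal was 13.72 to 14.63 in MI mice and 14.06 to 14.56 in sham mice. The part of these cells in the values of the class II and costimulation genes was not tested.

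The largest differences among the marker lists were those of neutrophils. Of 8 neutrophil markers 7 passed as higher, led by Retnlg with 4.28 (Csf3r, with 0.10, did not pass), and the log2 of their summed signal was 17.67 to 18.28 in MI mice and 15.93 to 16.26 in sham mice. Of 5 monocyte markers 3 passed as higher, led by Chil3 with 2.82, and the brightest probe of F10 (-0.04) did not match its other probe (2.00, adjusted p = 9.6e-05). Of 3 T cell markers 1 passed as higher, Cd3d with 1.13 (Cd3e differed by -0.11), and Cd3g, Cd8a and Trat1 had no retained probe. No marker of cardiomyocytes (8 genes, from -0.14 for Ryr2 to 1.39 for Nppa), endothelial cells (6 genes, from -0.15 for Kdr to 0.67 for Pecam1) or fibroblasts (6 genes, from -0.74 for Col3a1 to 0.43 for Tcf21) passed with spike-in scaling. Pecam1 passed as higher with scaling to the 75th percentile (limma adjusted p = 0.0389). Nppa passed as higher in the values of the authors (adjusted p = 0.0495) and after normexp correction (adjusted p = 3.2e-09), where Col3a1 passed as lower (adjusted p = 0.0155).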

How the data were processed

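Total RNA from the ventricles of 8 mice was labeled with Cy3 and hybridized, 1 array per mouse. Per the file headers, Agilent Feature Extraction 11.0.1.1 produced the deposited intensities: processed signals, corrected for background within each array, and the median intensities of spot and local background. The authors also deposited normalized log2 values, made with limma and vsn on spike-in probes after spots near background were removed. No sample was pooled, and all deposited columns of samples were assigned.

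From the processed signals, log2 values were computed without spots carrying outlier flags. Each array was shifted by the median of 234 spike-in spots (7 probes), spots of a probe were averaged, and control probes were left out, as were those that cleared background on fewer than 4 arrays (34038 of 55681 probes kept, 33865 of them with a value on all 8 arrays, on which overlap was counted). Genes were named through RefSeq accessions (GRCm38.p6) for 19704 retained probes. Differences were tested with limma 3.58.1 in R 4.3.3, without covariates, with Benjamini-Hochberg adjustment over all retained probes. Single ratios were tested by exact two-sided permutation over mice (Python 3.11.15, numpy 2.4.6, pandas 2.3.3). Figures were drawn with matplotlib 3.10.9.

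The members and lists were chosen with earlier results of these data known. Named were the members, list genes that passed with a fold over 2 (at most 3 per list), the extremes of each marker list, Ptprc, and the 5 genes closest to the class II profile. Any other gene named was chosen after its values were seen. Alternatives were scaling to the 75th percentile, quantile normalization, a fit with additive constants, the authors' log2 values, normexp (offset 50, on median intensities), other detection filters, significance analysis of microarrays, unmoderated variances, replicate or row blocks, single rows, mean of probes and leaving out each mouse. On simulated data with 200 probes changed 4-fold among 33865, limma recovered 92.0% with 13 false calls. The noise there was independent between probes, and 4-fold exceeds the difference of every member by its brightest probe. The simulation thus does not show how often differences as small as those of the members would be missed. Near-identical genes (H2-DMb1 and H2-DMb2, class I genes) may share probe signal. Some genes of the lists are not reported here by name.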

Additional observations from a re-analysis of the deposited data

Results flagged for a closer look

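In 6 of 92 groups of 4 mice 1 mouse stood far from the other 3, and chance alone sets about 1 group in 20 apart. The log2 signal of H2-DMb1 in MI mouse 4 was 10.02, against 8.90 to 9.07 in the other MI mice. Tnfsf9 in MI mouse 3 was 8.08, against 7.53 to 7.55. The log2 ratio of Cd74 to Ptprc in sham mouse 4 was 4.07, against 4.27 to 4.29 in the other sham mice. The log2 ratio of H2-Aa to Csf1r was -3.86 in MI mouse 1, against -3.56 to -3.53, and -3.46 in sham mouse 2, against -4.01 to -3.97. The log2 ratio of Cd40 to Csf1r in MI mouse 4 was -6.49, against -5.55 to -5.38.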

How the results depend on the processing

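The number of members that passed, 1 with spike-in scaling, was 2 with 75th percentile scaling, quantile normalization, significance analysis of microarrays, the replicate block and the mean of all probes of a gene, where Cd80 passed through the probe retained only by its MI arrays. It was 0 with additive constants, the authors' values, no detection filter, detection on all 8 arrays (where Ciita is not tested), unmoderated variances and within row 1 or row 2, and 0 to 1 when a mouse was left out. Of the pathway genes, 8 with spike-in scaling, 18 passed with 75th percentile scaling and with quantile normalization, 13 with normexp, 15 with the replicate block, 5 without a filter and 5 with unmoderated variances, 1 within row 1 and 0 within row 2, and 5 to 12 when a mouse was left out (5 without MI mouse 3, sham mouse 2 or sham mouse 4). Of all probes, 5.65% passed with spike-in scaling and 17.5% with 75th percentile scaling. The share was not counted for quantile normalization, the replicate block or the mean of probes. Larger counts of members or pathway genes under those fits therefore cannot be set beside a background. The replicate numbers do not pair the mice (correlations of same-numbered deviations 0.1963, 0.04157, -0.07313 and 0.007067).

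The median member difference of 0.30 was 0.60 within row 2, -0.033 within row 1 with 75th percentile scaling, and 0.21 to 0.39 when a mouse was left out. With 75th percentile scaling, H2-Aa was -0.046 (also with the block; -0.47 within row 1) and H2-Ab1 -0.039 (also with the block; -0.48 within row 1), while within row 1 H2-DMb1 was -0.23 and Cd86 -0.090, and within row 2 H2-Eb1 was 0.13. With quantile normalization H2-Aa was -0.037. With spike-in scaling, row 1 gave -0.38 for H2-Aa, -0.39 for H2-Ab1 and -0.14 for H2-DMb1, and row 2 gave 0.32 for H2-Eb1. Leaving out a mouse gave -0.068 to 0.26 for H2-Aa, -0.075 to 0.24 for H2-Ab1, -0.22 to 0.046 for H2-Eb1 and -0.023 to 0.35 for H2-DMb1.

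Cd74 relative to Ptprc turned higher in MI mice with additive constants, by 0.054 on the log2 scale (exact permutation p = 0.629). Ciita relative to Ptprc differed by -0.38 to 0.048 on the log2 scale when a mouse was left out. Relative to Ptprc, 7 genes had an exact permutation p under 0.05, 4 with additive constants and 4 to 9 when a mouse was left out. Relative to Csf1r 4 genes did (2 without sham mouse 2 or 3, where the groups of Ciita and Cd80 stayed separate), and 2 with additive constants, normexp or the mean of its probes (H2-Aa -0.11, H2-Ab1 -0.11, H2-Eb1 -0.26, Cd86 -0.022), and 2 to 4 when a mouse was left out. Relative to the class II chains, 0 passed, 0 to 1 when a mouse was left out, and within row 2 Cd40 was -0.21 and Cd86 -0.12. The costimulation mean less the class II mean differed by 0.08 to 0.37 when a mouse was left out. The cause of these changes was not tested. The comparison with Cd68 was not run, since no probe was assigned to it. Alternatives relative to Csf1r and to the class II chains, and 75th percentile scaling combined with the block or within rows, were chosen after seeing the data. Dim probes (Ciita, the dimmer Cd80 probe, Pdcd1lg2) are limited by signal over background.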
